A study of Homo sapiens with 6 samples.

Results

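The potassium channel genes were taken as the protein-coding genes of the GENCODE annotation outside the X and Y chromosomes whose symbol begins with KCN. Of 19111 autosomal protein-coding genes with a canonical transcript start, 92 belonged to this set. For 53 of them, called neuronal here, the product was classed by hand as a channel or channel subunit of the nervous system. The class is loose, as it holds KCNJ10, chiefly a glial channel, and KCNJ11, KCNIP2 and KCNMA1, which also act outside neurons. The 39 other genes hold KCNH2, KCNH6, KCNG1, KCNK1 and KCNS3, and their class does not show that they are absent from neurons. SK-N-AS cells were profiled with ATAC-seq, in which the transposase Tn5 cuts and tags open DNA. SK-N-AS is a human neuroblastoma cell line without MYCN amplification. The 3 cell types were naïve cells, grown from xenograft tumors of mice given vehicle, and the R1 and R2 cells, grown from tumors that relapsed in mice given indisulam, a sulfonamide that recruits the splicing factor RBM39 to the ubiquitin ligase receptor DCAF15 for degradation. Each cell type had 2 libraries of 100000 cultured cells that received no treatment in culture. R1 and R2 are each named as 1 derived culture, and nothing in the sources used here says whether the 2 libraries came from separate cultures, so the spread between them may be technical. The comparisons asked which channel promoters were open in these neuroblastoma cells and whether their accessibility differed between resistant and naïve cells.

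Potassium channels let potassium ions leave or enter the cell along their gradient, and they set the resting potential, end the action potential and limit repetitive firing. The family holds voltage-gated Kv channels with their silent and accessory subunits, calcium- and sodium-activated channels, inward rectifiers (Kir) and two-pore-domain leak channels (K2P). Many neuronal ion channel genes carry an RE1 element, the binding sequence of the repressor REST, which holds them silent outside neurons. Neuroblastoma arises from the sympathoadrenal lineage of the neural crest.

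Accessibility at a gene was read from its start peak, the strongest deposited peak with at least 1 base within 1000 bp of the start of the Ensembl canonical transcript. Peak strength was the deposited −log10 p, and it was expressed as the list percentile, the percentage of peaks in that library's list that are weaker, so that 100 is the top of the list. The lists differed in depth. The naïve lists held 154926 and 115694 peaks, the R1 lists 340558 and 292030, and the R2 lists 67558 and 73484. The relative depth recovered from the background of each list was 2.69 and 1.59 in naïve, 9.34 and 6.39 in R1, and 1 and 1.06 in R2, so that a peak needed at least 9 and 7 tags to be called in naïve, 18 and 14 in R1, and 6 in each R2 library. Peaks at channel starts were also wider in R1, with medians of 2064 and 1703 bp, against 541 and 429 bp in naïve and 393 and 340 bp in R2. No peak served 2 channel genes, and 1 to 4 of the start peaks per library were also the start peak of another gene. Counts of start peaks moved with depth, and for that reason the 20000 strongest peaks of each library were also used, peaks tied at the limit included. With ties these were 23539 peaks in the first R2 library and 20030 to 20387 in the others.

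The starts of the potassium channel genes were open less often than those of other genes in the naïve and R2 libraries. A start peak was present for 57 and 54 of the 92 genes in the naïve libraries, or 62.0% and 58.7%, against 73.3% and 69.7% of all genes. It was present for 48 and 50 in R2, or 52.2% and 54.3%, against 62.8% and 63.8% of all genes. In R1 it was present for 82 and 81, or 89.1% and 88.0%, and the shares of all genes were 86.2% and 84.5%. In all 6 libraries, 32 channel genes had a start peak, which is 34.8% of them, against 56.3% of all genes. The difference was larger at a similar list length. Among the 20000 strongest peaks stood 19 and 17 channel starts in naïve, against 47.3% and 45.5% of all genes. In R1 there were 45 and 41, or 48.9% and 44.6%, against 59.0% and 57.4% of all genes. In R2 there were 26 and 21, or 28.3% and 22.8%, against 47.8% and 45.5% of all genes. The 11 channel genes among the 20000 strongest of every library are 12.0% of the set, against 34.8% of all genes. Both R1 libraries thus held more channel starts at equal list length than any of the other 4, and the naïve libraries held the fewest.

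The neuronal and the other channel genes were also counted separately. Of the 53 neuronal genes, 35 and 35 had a start peak in naïve, 52 and 51 in R1, and 36 and 36 in R2. Among the 20000 strongest peaks were 14 and 12 of them in naïve, 32 and 31 in R1, and 19 and 15 in R2. Of the 39 other genes, 22 and 19 had a start peak in naïve, 30 and 30 in R1, and 12 and 14 in R2, and those among the 20000 strongest were 5 and 5, 13 and 10, and 7 and 6. In R1 the neuronal genes had a start peak more often than all genes, at 98.1% and 96.2% against 86.2% and 84.5%. Among the 20000 strongest their R1 shares were close to those of all genes, at 60.4% and 58.5% against 59.0% and 57.4%. In the naïve libraries they lay below the share of all genes by either measure. In R2 the share with a start peak was 67.9% in each library, above that of all genes, and among the 20000 strongest it was 35.8% and 28.3%, below that of all genes.

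**Figure D1:**
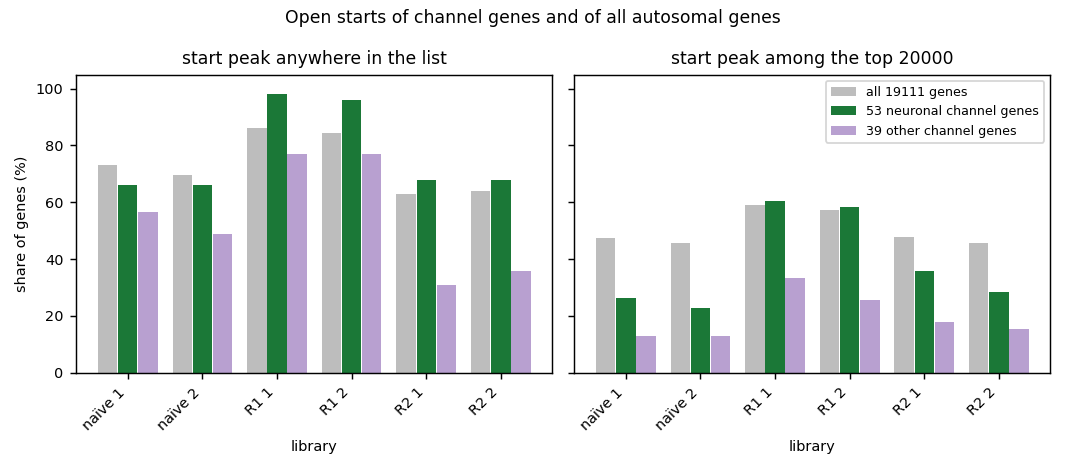
Share of genes (%) with a start peak anywhere in the list (left) and among the 20000 strongest peaks (right) in each library, for all autosomal protein-coding genes (grey), the 53 neuronal channel genes (green) and the 39 other channel genes (violet). In the right panel the green bars reach the grey bars in the R1 libraries and stay below them in the other 4.

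A group of 11 channel starts was strong in every library. KCNC4, KCNN3, KCNJ10, KCNH1, KCNC1, KCNH6, KCNJ2, KCNG1, KCNH2 and KCNS2 belonged to this group, which was among the 20000 strongest peaks of all 6 libraries. The highest mean list percentile over the 6 libraries belonged to KCNN3, which codes for the small-conductance calcium-activated channel SK3. Its list percentiles were 96.9 and 96.9 in naïve, 98.9 and 99.1 in R1, and 98.6 and 99.1 in R2. It was followed by KCNJ2, the strong inward rectifier Kir2.1 that stabilizes the resting potential, at 99.5 and 98.5 in naïve, 99.5 and 99.5 in R1, and 95.9 and 95.1 in R2. Both genes stood near the top of every list. KCNG1, a silent subunit that modifies Kv2 channels, stood at 96.6 and 97.4, 99.6 and 99.5, and 98.4 and 95.1 in the same order. KCNH1, the EAG channel Kv10.1, was less even, with 99.3 and 91.8 in naïve, 99.5 and 99.5 in R1, and 92.0 and 98.3 in R2. At KCNH1 the naïve libraries differed by more than the cell types did. Also high were KCNC4 (the fast Kv3.4), KCNH6 (ERG2), KCNJ10 (the glial Kir4.1), KCNH2 (ERG1, which repolarizes the heart muscle cell) and KCNS3. Their lowest list percentiles in any library were 88.3, 86.6, 85.2, 85.2 and 82.2. At the other end, KCNJ1, KCNRG, KCNJ16, KCNJ13, KCNJ15, KCNAB1, KCNMB2, KCNMB3 and KCNU1 had no start peak in any library. These 9 genes are 9.78% of the set, against 13.1% of all genes, and they hold 4 of the 15 inward rectifiers, among them KCNJ1, the renal channel ROMK.

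**Figure D2:**
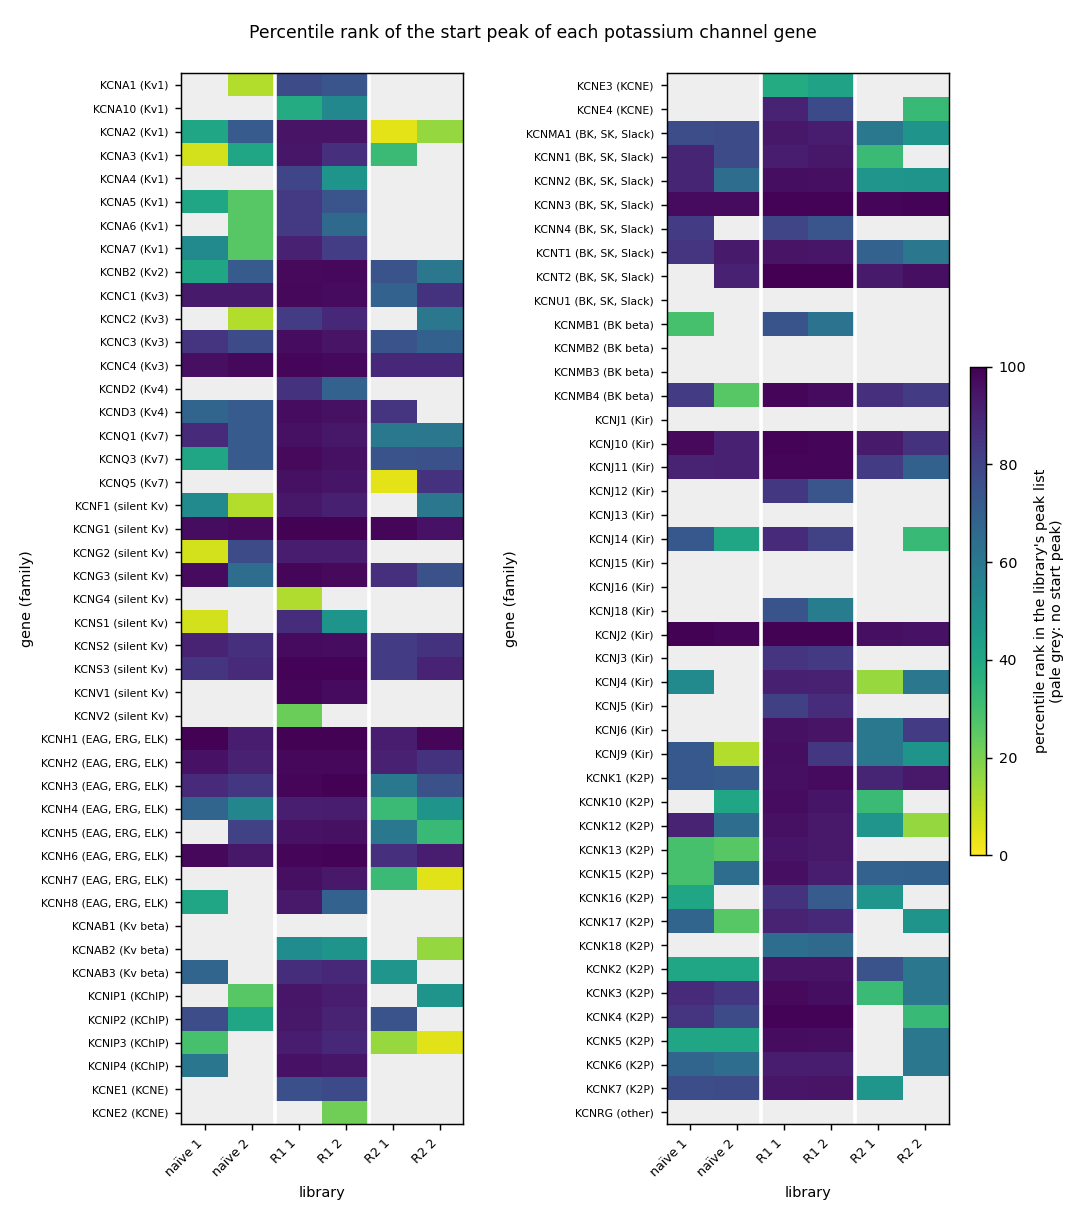
List percentile of the start peak of 89 channel genes (rows, with family) in each of the 6 libraries (columns), where dark marks a strong peak and pale grey no start peak. KCNN3, KCNJ2 and KCNG1 are dark in every column, and the R1 columns hold the fewest grey cells.

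The promoters of 4 genes are shown to give the range of sequence behind these values. KCNN3 was strong in every library, the rank of KCNS3 was higher in R1 by the test given further on, KCNT2 held the strongest channel start of R1, and KCNJ1 had no start peak. Each line gives the 200 bases before the start of the canonical transcript in build hg38, 5′ to 3′ along the gene, with CpG dinucleotides in capitals.
KCNN3, chr1:154870282-154870481, minus strand: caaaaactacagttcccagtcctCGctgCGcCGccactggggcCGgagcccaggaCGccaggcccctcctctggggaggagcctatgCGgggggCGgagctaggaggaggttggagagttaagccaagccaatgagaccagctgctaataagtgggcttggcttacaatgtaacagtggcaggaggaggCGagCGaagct
KCNS3, chr2:17878467-17878666, plus strand: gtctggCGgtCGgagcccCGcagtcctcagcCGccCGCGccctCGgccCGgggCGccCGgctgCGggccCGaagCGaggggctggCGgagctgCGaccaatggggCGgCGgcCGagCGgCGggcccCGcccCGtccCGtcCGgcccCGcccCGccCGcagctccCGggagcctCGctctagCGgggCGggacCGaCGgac
KCNT2, chr1:196608441-196608640, minus strand: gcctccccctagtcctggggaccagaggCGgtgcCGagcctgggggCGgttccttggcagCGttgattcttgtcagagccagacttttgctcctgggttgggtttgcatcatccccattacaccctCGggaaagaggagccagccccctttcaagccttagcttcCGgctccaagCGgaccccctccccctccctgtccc
KCNJ1, chr11:128867297-128867496, minus strand: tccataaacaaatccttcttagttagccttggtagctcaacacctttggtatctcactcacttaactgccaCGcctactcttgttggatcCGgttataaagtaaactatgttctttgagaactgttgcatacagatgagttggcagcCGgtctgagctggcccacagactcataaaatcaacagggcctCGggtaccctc
The stretch before KCNS3 held 33 CpG dinucleotides, that before KCNN3 9, that before KCNT2 7 and that before KCNJ1 4. KCNN3 and KCNT2, both strong starts in R1, thus had few CpG dinucleotides.

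Openness went with CpG content among the channel genes, as it did among all genes. Over 250 bases before to 50 bases after the start, the median ratio of observed to expected CpG was 0.821 for the 32 genes open in all 6 libraries, 0.588 for the 51 open in 1 to 5, and 0.321 for the 9 open in none. For all genes the medians were 0.864, 0.639 and 0.207. A ratio of at least 0.6 was found for 29 of the 32, 25 of the 51 and 0 of the 9. KCNJ9, KCNJ11 and KCNN3 were the 3 genes open in every library with a lower ratio, at 0.263, 0.413 and 0.469. The channel starts were also richer in G and C, with a median of 75.8% in the 32 genes open everywhere, against 67.7% in all genes open everywhere.

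**Figure D3:**
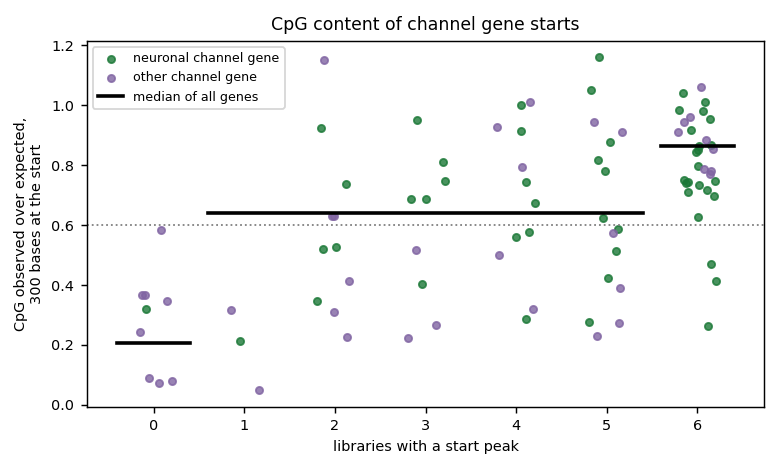
Ratio of observed to expected CpG around the start (vertical axis) against the number of libraries with a start peak (horizontal axis) for each neuronal (green) and other (violet) channel gene, with the medians of all genes open in none, in 1 to 5 and in 6 libraries as black lines and a ratio of 0.6 as a dotted line. All 9 genes without a start peak lie under the dotted line, and 29 of the 32 open everywhere lie above it.

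The voltage-gated channels differed between families. Of the 4 Kv3 genes, which code for fast delayed rectifiers of rapidly firing neurons, 3 had a start peak in every library. KCNC1 (Kv3.1) stood at list percentiles of 92.7 and 92.6 in naïve, 97.8 and 97.0 in R1, and 68.7 and 85.2 in R2. Of the 5 Kv7 genes, 4 were open in every library, and the exception was KCNQ5. KCNQ3, which codes for a subunit of the M-channel that restrains neuronal firing, stood at 41.3 and 71.3 in naïve, 97.3 and 95.6 in R1, and 74.6 and 75.2 in R2. Of the 8 Kv1 genes, delayed rectifiers of axons and lymphocytes, KCNA2 was the only gene with a start peak in all 6 libraries, and none was among the 20000 strongest peaks of a naïve or R2 library. Neither Kv4 gene, KCND2 nor KCND3, which code for A-type channels, had a start peak in all 6 libraries. KCNB2, a Kv2 delayed rectifier, stood at 41.3 and 71.3 in naïve, 97.6 and 97.8 in R1, and 74.6 and 60.5 in R2. Of the 10 silent Kv genes, 4 were open in all 6 libraries, and of the 8 genes of the EAG, ERG and ELK channels 5 were. KCNH2 stood at 95.0 and 90.7 in naïve, 98.0 and 97.9 in R1, and 91.0 and 85.2 in R2, which placed it among the 20000 strongest peaks of every library.

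None of the 3 Kv beta genes, the 4 KCNE genes or the 4 KChIP genes, which code for accessory subunits, had a start peak in all 6 libraries. Of these 11 genes, 4 and 2 had one in naïve, 9 and 10 in R1, and 3 and 4 in R2. KCNE genes had no start peak in either naïve library. Other annotated starts of these genes could be open. With the strongest peak at any annotated start, KCNAB2 (Kv beta 2) stood at 98.8 and 98.6 in naïve, 99 and 98.9 in R1, and 92 and 94.5 in R2, and KCNIP3 (the calcium sensor KChIP3) at 97.1 and 92.6, 99 and 98.3, and 89.7 and 85.2. Over all channel genes, 40 had a peak at some annotated start in every library, or 43.5% against 61.3% of all genes, and 32 had it at the canonical start. Of the 4 beta subunits of the BK channel, KCNMB4, the neuronal one, was open everywhere. Its pore-forming partner KCNMA1 stood at 76.5 and 76.7 in naïve, 93.6 and 92.1 in R1, and 60.1 and 48.3 in R2, and it was not among the 20000 strongest of any library. The small-conductance channels KCNN1 and KCNN2, which carry the after-hyperpolarization, were weaker than KCNN3. KCNN1 stood at 89.8 and 76.7 in naïve, 92.3 and 93.4 in R1 and 32 in the first R2 library, with no start peak in the second. KCNN2 stood at 89.8 and 64.1 in naïve, 96.2 and 95.8 in R1, and 47.8 and 48.3 in R2. By any annotated start, KCNN1 stood at 91.4 and 90.7 in naïve, 94.1 and 98.3 in R1, and 32 and 48.3 in R2. By that measure KCNN2 stood at 89.8 and 64.1, 98.8 and 97.7, and 68.7 and 88.9. Of the 14 K2P genes, which code for leak channels, 5 were open in every library. Among the 20000 strongest peaks were 2 and 1 of the 14 in naïve, 10 and 7 in R1, and 3 and 1 in R2. KCNK3, the acid-sensitive leak channel TASK-1, stood at 87.5 and 83.7 in naïve, 97.5 and 96.3 in R1, and 32 and 60.5 in R2. KCNK2, the mechanosensitive TREK-1, stood at 41.3 and 41.1, 94.9 and 94.6, and 74.6 and 60.5.

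Ranks were compared between cell types for the genes with a start peak in all 6 libraries. For these 10765 genes, the percentile of the start peak among the same genes (gene rank) was tested with limma over all 6 libraries, with Benjamini-Hochberg adjustment over all of them at 0.05. The p-values measure the spread between these libraries only. In R1 against naïve, 3 of the 32 channel genes tested were higher, KCNH3 and KCNS3 among them, and none was lower. Over all genes, 2.27% were higher and 1.50% were lower. The median difference was 4.60 percentile points over the 32 genes and -0.79 over all genes, and 22 of the 32 differences were positive, as were 5125 of the 10765.

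KCNH3 codes for ELK2, a voltage-gated channel of the forebrain. Its gene ranks were 21.2 and 24.1 in naïve, 63.7 and 82.0 in R1, and 15.3 and 24.4 in R2. Both R1 libraries lay above the other 4, and naïve and R2 overlapped. The difference of R1 from naïve was 50.20 ± 7.94 percentile points (SE, limma; adjusted p = 0.0414; n = 2 and 2). The start peak of KCNH3 spanned 4751 and 4736 bp in R1, against 535 and 1067 bp in naïve, with summits 160 and 184 bp before the start in R1. Genes within 5 Mb of KCNH3 had a median difference of 0.18 points.

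KCNS3 codes for the silent subunit Kv9.3, which alters Kv2 currents. Its gene ranks were 16 and 32.1 in naïve, 75.7 and 72.4 in R1, and 38.0 and 55.3 in R2. Naïve was lowest and R1 highest, with no overlap. R1 exceeded naïve by 50.01 ± 8.75 points (SE, limma; adjusted p = 0.0479). Here the 15 tested genes within 5 Mb had a median difference of 25.83 points, so that the surrounding stretch of chromosome 2 was higher as well.

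The calls were sensitive to how they were made. With each gene's value taken relative to its neighbours within 5 Mb, 0 of the 32 genes were called, and of all genes 6 were, or 0.0557%. In that fit the difference was 44.46 points at KCNH3 (adjusted p = 0.0803, limma) and 16.29 points at KCNS3 (adjusted p = 0.463, limma). Without any 1 of the naïve or R1 libraries, 0 of the 32 genes and 0 of all genes were called. Where the summit itself had to lie within 1000 bp of the start, KCNH3 remained called (adjusted p = 0.0478, limma), and KCNS3 did not (adjusted p = 0.055, limma).

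**Figure D4:**
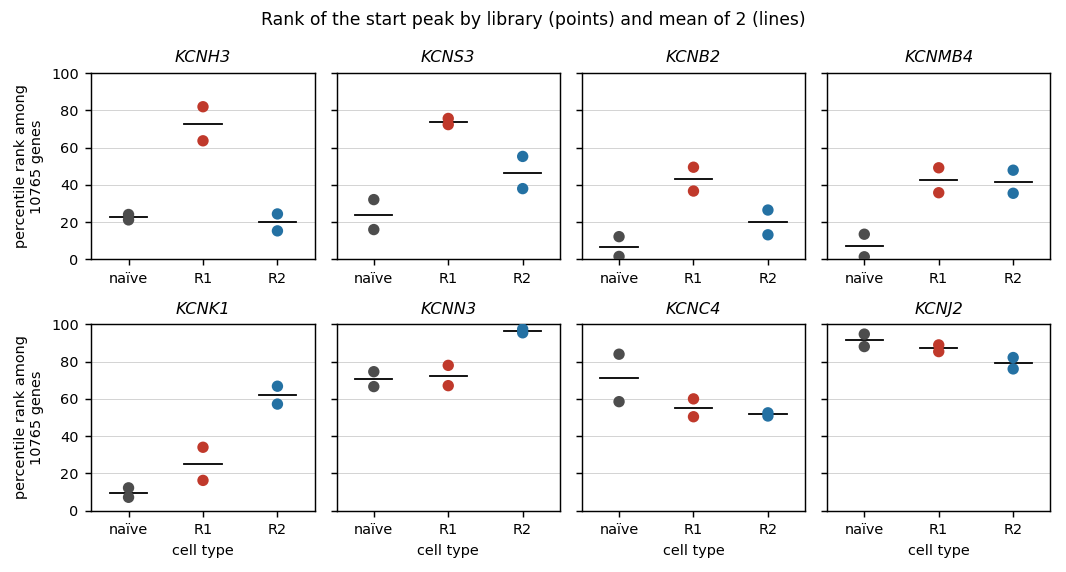
Gene rank (percentile among the tested genes, vertical axis) of 8 channel genes by cell type, with each of the 6 libraries as a point and the mean of 2 libraries as a line. KCNH3 and KCNS3 have both R1 points above all others, KCNK1 and KCNN3 have both R2 points above all others, and KCNJ2 stays at 76.1 or above in every library.

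In R2 against naïve, 0 of the 32 genes were called by limma, as were 0% of all genes, although 6 of the 32 and 1866 of the 10765 had an unadjusted p under 0.05. The largest differences were those of KCNK1, KCNMB4, KCNN3, KCNS3 and KCNC4, none of which passed the test. KCNK1 codes for the leak channel TWIK-1. Its gene ranks were 7.11 and 12.2 in naïve, 16.2 and 34.0 in R1, and 57.2 and 66.8 in R2. Both R2 libraries lay above the other 4, and the difference from naïve was 52.39 ± 8 points (SE, limma; adjusted p = 0.0972). The genes within 5 Mb of KCNK1 had a median of -2.95. KCNMB4 had gene ranks of 13.5 and 1.38 in naïve, 49.2 and 35.8 in R1, and 47.9 and 35.5 in R2, so that all 4 resistant libraries lay above both naïve ones. Its differences were 34.26 ± 8.24 points in R2 (adjusted p = 0.145, limma) and 35.05 ± 8.24 in R1 (adjusted p = 0.0785, limma), against the same naïve libraries. KCNN3, high in every library, had gene ranks of 66.6 and 74.6 in naïve, 67.1 and 78.0 in R1, and 95.5 and 97.5 in R2. Its difference of R2 from naïve was 25.90 ± 6.44 points (adjusted p = 0.149, limma). KCNC4 differed the other way, by -19.61 ± 9.60 points (adjusted p = 0.369, limma), with gene ranks of 58.5 and 84.0 in naïve and 52.5 and 50.8 in R2. This difference was -32.16 without the first naïve library and -6.80 without the second.

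The resistant types were compared directly in R1 against R2. None of the 32 channel genes was called, and 0.167% of all genes were, with 8 of the 32 and 1997 of all genes at an unadjusted p under 0.05. The largest difference was that of KCNH3, at 53.05 ± 7.94 points (adjusted p = 0.0829, limma). KCNK1 differed by -36.96 ± 8 points (adjusted p = 0.121, limma), KCNS3 by 27.44 ± 8.75 (adjusted p = 0.199, limma) and KCNJ11, the Kir6.2 pore of ATP-sensitive channels, by 24.25 ± 8.42 (adjusted p = 0.227, limma). The difference at KCNS3 was 17.64 without the first R2 library, and that at KCNJ11 was 14.04 without the second.

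**Figure D5:**
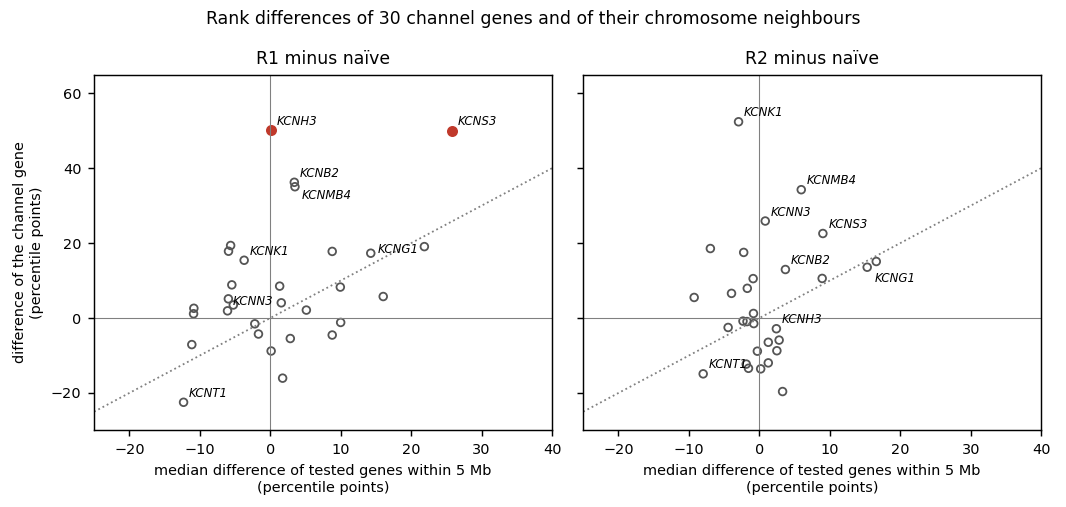
Difference in gene rank of 30 channel genes (vertical axis, percentile points) against the median difference of the tested genes within 5 Mb (horizontal axis), for R1 minus naïve (left) and R2 minus naïve (right), with called genes filled and equality dotted. KCNS3 lies to the right with neighbours that were also higher, and KCNH3 and KCNK1 lie above neighbours near 0. Both panels share the naïve libraries.

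Some channel starts had a peak in the resistant cells and none in either naïve library. KCNJ6, KCNQ5 and KCNH7 had a start peak in all 4 resistant libraries only, which is 3.26% of the channel genes against 0.398% of all genes. All 3 are neuronal. KCNJ6 codes for GIRK2, a G protein-gated inward rectifier, KCNQ5 for an M-channel subunit and KCNH7 for the channel ERG3. KCNJ6 stood at list percentiles of 95.6 and 94.6 in R1 and 60.1 and 82.8 in R2. KCNQ5 stood at 95.7 and 94.3 in R1 and was uneven in R2, at 4.24 and 85.2. KCNH7 stood at 95.9 and 93.2 in R1 and lower in R2, at 32 and 4.38, the second of these near the bottom of its list. Scaled by background to the depth of the first naïve library, the peaks of these 3 genes would hold 17.8 to 40.7 tags, where 9 sufficed for a call, and at the depth of the second 10.5 to 24.1, where 7 sufficed. Scaled tags above the minimum do not foretell a call, even between libraries of 1 cell type. For the first naïve library they were 22.9 to 30.7 at KCNH5 and 35.6 to 98.2 at KCNT2. Neither gene had a start peak there, while the second naïve library had both, at list percentiles of 80.7 and 90.7. Around KCNQ5, the 15 tested genes within 5 Mb were higher than in naïve by medians of 47.94 points in R1 and 33.82 in R2. Around KCNJ6 the medians were -0.35 and 0.73, and around KCNH7 they were 13.67 and -1.04. No channel gene had the reverse pattern, a start peak in both naïve libraries only, nor did any have a start peak in both R2 libraries only, and 0.0262% and 0% of all genes did.

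Among the 20000 strongest peaks, 4 channel genes were present in all 4 resistant libraries and in neither naïve one, KCNK1, KCNMB4 and KCNQ3 among them, which is 4.35% of the channel genes against 1.49% of all genes.

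KCNT2, which codes for the sodium-activated channel Slick, had the strongest channel start in R1. It had no start peak in the first naïve library and stood at 90.7 in the second, at 99.9 and 99.8 in R1, and at 92.9 and 96.0 in R2. In the R1 lists it was peak number 466 and 448 by strength. Its summits lay 425 to 437 bp before the canonical start in every library with a peak. At the depth of the second naïve library, where it held 21 tags, the R1 peaks would hold 58.0 and 56.7 tags and the R2 peaks 35.0 and 40.6. KCNT2 was not among the genes tested, which had a start peak in all 6 libraries. In a fit over the 12764 genes with a start peak in at least 1 library of each cell type, with the library without a peak left out for KCNT2, R1 exceeded naïve by 50.53 ± 7.38 points (SE, limma; adjusted p = 0.0591). Genes within 5 Mb had medians of -9.56 in R1 and -3.30 in R2.

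A further 11 genes, 12.0% of the set against 7.03% of all genes, had a start peak in both R1 libraries only. They were KCNV1, KCNJ5, KCNJ3, KCNJ12, KCND2, KCNE1, KCNJ18, KCNK18, KCNA4, KCNA10 and KCNE3. KCNJ3 codes for GIRK1, which pairs with GIRK2 and with the product of KCNJ5 (GIRK4), and it stood at 84.5 and 82.9 in R1. Scaled to the depth of the first naïve library, the peaks of 9 of the 11 genes held at least the 9 tags needed there in both R1 libraries, and at the depth of the second those of 6 held at least 7. Scaled to the depth of the R2 libraries, those of 10 of the 11 genes fell below the 6 tags needed there in at least 1 R1 library, and only KCNV1, a silent Kv subunit, stayed above in both, with 14.2 to 19.1 tags. Here too, scaled tags above the minimum do not foretell a call. KCNV1 stood at 98.3 and 96.9 in R1, but its summits lay 1268 and 1276 bp inside the gene. At any annotated start, KCNV1 also had a peak in the first naïve library, at 52.1, and in both R2 libraries, at 15.6 and 60.5. By that measure KCNE1 had one in both naïve libraries, at 60.6 and 54.1, and the remaining genes of the 11 had none outside R1. KCNJ12 and KCNJ18 are near-identical copies, and reads shared between them make both values uncertain. At a similar list length, 10 genes were among the 20000 strongest of both R1 libraries and of no other. They are 10.9% of the set, against 3.64% of all genes. KCNV1, KCNIP4, KCNK4, KCNK7, KCNH5, KCNK5, KCNK10, KCNH7 and KCNA2 were among them. In that group KCNK4, the leak channel TRAAK, stood highest, at 99.2 and 99.2 in R1, but its R1 peaks were 10728 and 9574 bp wide with summits 6580 bp before its start. The summit lay more than 1000 bp from the start for 8 of 57 and 3 of 54 channel start peaks in naïve, 13 of 82 and 10 of 81 in R1, and 2 of 48 and 1 of 50 in R2.

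RE1 letters were searched because REST is known to act on neuronal channel genes. The letters CAGCACC, then 2 bases of any kind, then GGACAG, on either strand, occurred within 1000 bp of the start of 3 of the 92 channel genes, or 3.26%, and of 75 of all 19111 genes, or 0.392%. The result depended on the window. In the shorter window around the start used below for CAGCACC alone, both parts occurred in 0 of the 92 channel genes. They occurred there in 12 of all 19111 genes, or 0.0628%. The 3 sites within 1000 bp are shown in hg38 with both parts in capitals.
KCNH4, chr17:42180280-42180308, minus strand: tcaggttCAGCACCttGGACAGccacatc
KCNK12, chr2:47571461-47571489, plus strand: ccggcgtCAGCACCgcGGACAGcgcatcg
KCNV2, chr9:2718228-2718256, minus strand: gcaccagCAGCACCccGGACAGgtagaaa
The KCNH4 site lies 848 bp inside the gene, outside annotated exons, the KCNK12 site 490 bp before the start, and the KCNV2 site 732 bp inside the gene in coding sequence. Peaks covered the KCNH4 and KCNK12 sites in 5 of 6 libraries each, all except the second R2 library, and the KCNV2 site in 0. The nearest summit of a covering peak was, from the middle of the KCNK12 site, 5 and 54 bp away in naïve, 42 and 55 bp in R1, and 153 bp in the first R2 library. At KCNH4 it was 613 and 59 bp away in naïve, 652 and 6 bp in R1, and 118 bp in the first R2 library. A match is a run of letters and does not show binding.

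Single RE1 parts were also more frequent at the summits of channel start peaks than at other start peaks. Within 100 bp of the summit, CAGCACC on either strand was found at 14% and 16.7% of channel start peaks in naïve, 13.4% and 16% in R1, and 14.6% and 14% in R2, against 6.89% and 6.76%, 7.06% and 6.90%, and 6.43% and 6.26% of all start peaks. GGACAGC, whose first 6 letters are those of the right part, was found at 14% and 13.0%, 14.6% and 11.1%, and 8.33% and 12.0% of channel start peaks, against 5.23% to 6.02% of all. KCNH6 and KCNK3 held CAGCACC near the summit in all 6 libraries. Between 250 bases before and 50 bases after the start, 10.9% of channel genes held CAGCACC and 12.0% held GGACAGC, against 7.77% and 6.92% of all genes. The AP-1 letters TGANTCA were found there in 2.17% of channel genes against 5.37% of all, the CRE letters TGACGTCA in 1.09% against 2.72%, and the E-box CACGTG in 4.35% against 8.69%. The channel promoters were richer in G and C than others, which changes how often any of these letters occur, and the part this plays was not tested.

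Other excitable-cell genes and cell type markers give the setting. Of 13 voltage-gated sodium channel genes, 5 had a start peak in all 6 libraries, as did 8 of 17 calcium channel genes, 3 of 4 HCN pacemaker channel genes and 5 of 6 genes of REST and its corepressors. SCN9A, the sodium channel Nav1.7, stood between 97.4 and 99.7 in every library, and REST itself between 78.9 and 98.3. Of 9 markers of adrenergic neuroblastoma, 6 had a start peak in every library, with GATA3 and HAND2 among the 20000 strongest throughout. Of 8 mesenchymal markers, 5 did, with VIM, FOSL1 and FOSL2 among the 20000 strongest throughout. Of 11 blood, endothelial and epithelial markers, 6 and 4 had a start peak in naïve, 7 and 7 in R1, and 1 and 3 in R2, with SPI1 in all 6 libraries. The start peaks of PTPRC and CD3E of blood, TEK of endothelium and ALB of liver were missing in all 6 libraries. Among the 20000 strongest peaks were only SPI1 in both R1 libraries and KRT8 in the first R1 library, and their part in the R1 values was not tested.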

How the data were processed

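ATAC-seq was performed on 2 libraries each of naïve, R1 and R2 SK-N-AS cells. As the methods state, the authors aligned reads with BWA (0.7.12-r1039 in the submitters' processing notes), marked duplicates with Picard 1.65, filtered with SAMtools 1.3.1, left out mitochondrial reads, offset read ends (+4 and -5 bp), and ran MACS2 2.2.7.1 on single libraries (q 0.01, extension 200 bp, shift 100 bp). Their methods give hg19 as the genome. Because peaks reach positions near the last bases of hg38 chromosomes, hg38 and GENCODE 44 were used.

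The deposited values of a peak are its fold enrichment, a ratio over the background of the same library, and the −log10 of its p-value and of its q-value, all as the authors' peak caller gave them. P-values depend on depth, so strengths were compared only as ranks within a library. Folds fall on regular steps set by the background of the list, and these steps gave the number of tags at a summit and the relative depth. The depths bound the precision of weak peaks, which rest on 6 to 18 tags.

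Start peaks, list percentiles and the 20000 strongest peaks are as defined in the results. Gene ranks were tested with limma 3.58.1 in R 4.3.3 (empirical Bayes, trend and robust off, no replicate block), with all 6 libraries in 1 fit, after the script was tested on simulated data. No paired term was used in that fit. Sequences are those of hg38, read with pysam 0.24.0. The genes named were the 10 with the highest mean percentile, those called (or the 5 largest differences), those seen in 1 cell type or in resistant cells only, 15 chosen in advance by family, and those without a start peak. KCNT2, KCNH4, KCNK12, KCNV2, KCNE3, KCNJ9, KCNAB2 and KCNIP3 and the marker and sodium channel genes were named after their values were seen. The channel genes and lists were chosen with earlier results of these data known. Some genes and sequences, among them 2 KCN genes left out of the set, are not reported here. Alternatives were the start, window, summit, q minimum, list length, rank measure, score scale, neighbourhood, replicate block, a start peak in at least 1 library of each cell type and each library left out, and those on ties and on summits for calls and list length were chosen after seeing the data.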

Additional observations from a re-analysis of the deposited data

How the results depend on the processing

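Of the counts recomputed, 132 stayed within 1.5 times the reported value and 25 moved further. Counts among the strongest peaks moved with the length of the list. With 10000 peaks they were 9 and 8 in naïve, 22 and 21 in R1, and 14 and 10 in R2, with 6 in all libraries and 3 neuronal genes in all. With 50000 peaks they were 37 and 37 in naïve and 44 and 45 in R2, with 24 in all libraries and 16 neuronal genes in all. In R1 against naïve, the 3 called genes became 5 with normal scores, 0 relative to neighbours within 5 Mb, 0 with the replicate block, 1 with the summit in the window, and 0 to 4 without 1 library. Of all genes, 7.54% were called with normal scores, 0.0557% relative to neighbours, 0% with the replicate block and 2.72% with the summit in the window, and 3.76% in the reported fit. The count of 0 became 1 with normal scores in R2 against naïve (1.26% of all genes), and 1 in R1 against R2 with normal scores (1.49%) or with the start of any annotated transcript (0.222%). No named difference changed sign. Ranking by fold gave the same counts as ranking by p. That result was fixed in advance, since both values follow the number of tags at the summit. Those counts are among the 132 and show nothing about stability. The replicate block fits the library number shared between cell types. Over 10765 genes, the differences between library 1 and library 2 correlated by 0.06, -0.02 and 0.01 between cell types. These correlations cannot show whether libraries of the same number were handled together. The cause of the changed counts was not tested. The lists recorded no peak under 6 tags in R2, under 9 and 7 in naïve, or under 18 and 14 in R1.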
